A study of Mus musculus with 4 samples.

Results

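The Ly6 family of small surface proteins was followed across colon tumours of 4 mouse RNA-seq libraries, 2 of Gsk3b IEC+/+ and 2 of Gsk3b IEC-/- tissue by their labels. The 9 members (Ly6a, Ly6c1, Ly6c2, Ly6d, Ly6e, Ly6f, Ly6g, Ly6i and Ly6m) were taken by gene symbol from the 26214 genes listed in the count files, and all 9 had a count in at least 1 library. Of these, 7 passed the filter on low counts that kept 16637 genes for testing. Ly6f and Ly6i did not pass it. The family was selected on the IEC-/- against IEC+/+ contrast of these same libraries, with the low level of Ly6m in IEC-/- among the results known, so the members' differences between the groups are a description and not a test.

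Tumours in both groups had been induced with AOM (azoxymethane, a carcinogen) and DSS (dextran sulfate sodium, which injures the colonic lining), and polyadenylated RNA was sequenced from the tumour tissue. The groups differ in the labelled state of Gsk3b, a serine/threonine kinase, in intestinal epithelial cells. Not given in the sources used here were the driver of the deletion, the exons removed, and the strain and age of the mice. Whether each library came from its own mouse is not stated, and p-values therefore cover no more than the spread between these samples. The tissue holds other cells besides epithelium, and in such bulk tissue fewer cells of a type and less RNA per cell cannot be told apart.

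Ly6 proteins carry an LU domain, a compact fold of finger-like loops held by disulfide bonds between cysteines, and most are tethered to the outer face of the membrane by a glycosylphosphatidylinositol (GPI) anchor. Several serve as markers of blood and stem cells: Ly6a is the stem cell antigen Sca-1, which is also raised in injured colonic epithelium, Ly6g marks neutrophils, and Ly6c2 marks inflammatory monocytes. Interferons induce some members, among them Ly6a and Ly6e.

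The coding sequences show which members could be confused with each other when reads are counted. Ly6c1 and Ly6c2 were the closest pair, with 97.73% identity over their coding bases and a longest shared run of 188 bases. Their last coding exons, both of 209 bases on the minus strand (GRCm38.p6, chr15:75045402-75045610 for Ly6c1 and chr15:75108543-75108751 for Ly6c2, RefSeq gene models with GENCODE M21 exons), differ at 3 bases, shown in capitals and printed 5′ to 3′:
Ly6c1: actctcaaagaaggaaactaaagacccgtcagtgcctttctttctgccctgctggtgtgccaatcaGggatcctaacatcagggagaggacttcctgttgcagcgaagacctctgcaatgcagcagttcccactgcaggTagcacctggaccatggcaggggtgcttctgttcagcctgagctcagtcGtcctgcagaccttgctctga
Ly6c2: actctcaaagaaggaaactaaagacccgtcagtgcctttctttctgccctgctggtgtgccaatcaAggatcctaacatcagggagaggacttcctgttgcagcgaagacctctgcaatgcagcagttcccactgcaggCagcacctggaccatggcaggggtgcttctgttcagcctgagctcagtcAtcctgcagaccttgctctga
A 150-base stretch lying wholly within this exon covers at least 1 capital and so differs between these genes. A shorter stretch, or one that runs into neighbouring bases, may cover none. Of all 150-base stretches of annotated Ly6c1 exons, 2.29% occurred unchanged in another gene, which was Ly6c2, and 1.42% of those of Ly6c2 occurred in Ly6c1. The length of 150 bases is that of the reads per the labels. None of the other 7 members shared a 150-base stretch with another annotated gene. The handling of reads that fit several genes is not stated, so the split between Ly6c1 and Ly6c2 is uncertain.

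The last coding exon of each of 5 further genes is printed because the results turn on them or on the contrast with them, with the cysteine codons in capitals. Ly6m (chr15:74879848-74880032, minus strand, 185 bases) and Ly6g (chr15:75158522-75158739, plus strand, 218 bases) are the members that were lowest in IEC-/- relative to IEC+/+. Ly6g2 (chr15:75220621-75220838, plus strand) is the neighbour closest in sequence to Ly6g and is no member, and Ly6a (chr15:74995262-74995479, minus strand) and Ly6e (chr15:74958493-74958713, plus strand, 221 bases) are the most abundant members.
Ly6m: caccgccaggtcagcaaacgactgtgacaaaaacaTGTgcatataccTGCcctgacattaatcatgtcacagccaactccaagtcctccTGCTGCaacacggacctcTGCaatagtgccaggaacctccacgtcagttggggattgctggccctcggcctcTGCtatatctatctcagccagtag
Ly6g: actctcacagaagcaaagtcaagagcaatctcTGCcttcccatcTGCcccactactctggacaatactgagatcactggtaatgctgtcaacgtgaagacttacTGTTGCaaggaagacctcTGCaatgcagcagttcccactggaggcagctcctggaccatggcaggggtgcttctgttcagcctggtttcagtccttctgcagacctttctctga
Ly6g2: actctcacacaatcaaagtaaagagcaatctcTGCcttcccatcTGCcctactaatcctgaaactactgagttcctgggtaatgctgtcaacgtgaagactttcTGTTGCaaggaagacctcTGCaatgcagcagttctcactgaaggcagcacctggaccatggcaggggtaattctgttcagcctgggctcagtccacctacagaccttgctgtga
Ly6a: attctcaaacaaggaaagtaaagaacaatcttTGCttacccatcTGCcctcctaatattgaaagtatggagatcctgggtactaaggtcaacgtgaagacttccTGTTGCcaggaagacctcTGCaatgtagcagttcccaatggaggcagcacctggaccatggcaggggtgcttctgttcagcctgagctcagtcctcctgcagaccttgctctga
Ly6e: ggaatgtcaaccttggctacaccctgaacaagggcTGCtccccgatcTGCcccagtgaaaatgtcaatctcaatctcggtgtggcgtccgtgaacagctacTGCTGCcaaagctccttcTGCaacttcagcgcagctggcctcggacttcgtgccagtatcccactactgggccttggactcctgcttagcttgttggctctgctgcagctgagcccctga
All 5 exons hold an adjacent pair of cysteine codons followed, after 4 codons, by another. Each member has 3 coding exons and 336 to 411 coding bases, and the 9 coding sequences hold 10 to 13 cysteine codons each. The 6 genes Ly6a, Ly6c1, Ly6c2, Ly6f, Ly6g and Ly6i formed a close group with 76.54 to 97.73% identity over 15 pairs. Pairs that involve Ly6d, Ly6e or Ly6m had 45.2 to 52.58% over 21 pairs. Ly6g was 86.42% identical to Ly6g2 and 83.21% to Ly6a, while Ly6m was 48.65% identical to Ly6g, so the 2 members that were lowest in IEC-/- relative to IEC+/+ belong to different sequence groups.

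**Figure D1:**
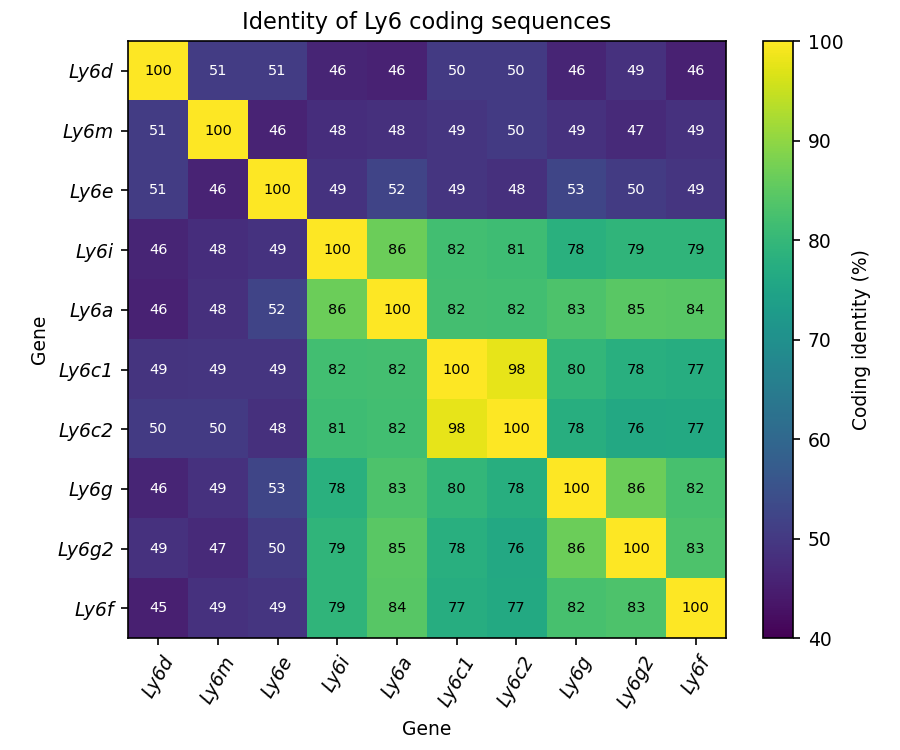
Percent identity of coding sequences between the 9 members and Ly6g2, by global alignment of each pair (colour scale from 40 to 100%, whole percents printed in the cells). Ly6a, Ly6c1, Ly6c2, Ly6f, Ly6g, Ly6g2 and Ly6i form the bright block, and Ly6d, Ly6m and Ly6e stand outside it.

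Levels are given in CPM, the usual scaling of counts by library total, here adjusted by the TMM factor of each library. Total counts were 25472503 to 27218515 per library, so depth differed little. Markers of the colon epithelium were present in all libraries, with 1423 to 3302 CPM for the keratin gene Krt8. The IEC-/- replicate 2 library stood apart on several marker lists. Its summed level of 12 squamous epithelium genes was 2744 CPM against 63.2 to 216 CPM in the other libraries, and 28 interferon-stimulated genes summed to 2241 CPM against 507 to 683 CPM. The 15 neutrophil genes summed to 1334 CPM against 183 to 302 CPM, and 10 B and plasma cell genes to 3489 CPM against 982 to 1663 CPM. Member values are therefore given with and without this library.

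The family's total was similar in the 4 libraries, while its makeup differed between the groups. The 9 members together held 0.195% and 0.198% of all counts in IEC+/+ replicates 1 and 2 against 0.210% and 0.239% in the IEC-/- replicates. Ly6e made up 61.9% and 63.5% of these counts in IEC+/+, and 87.3% and 79.5% in IEC-/-. Without Ly6e, the family summed to 778 and 745 CPM in IEC+/+ and to 254 and 475 CPM in IEC-/-, so the total of the other 8 members was lower in both IEC-/- libraries. The counts of all 9 summed gave a log2 fold change of 0.09 (SE 0.13).

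Per kilobase of transcript, Ly6e was highest in IEC+/+ at 561 CPM, followed by Ly6a at 458 CPM. Ly6m, Ly6d and Ly6g followed at 80.8, 80.0 and 68.5 CPM per kilobase, and on this length these 3 did not differ beyond the spread of their libraries. Ly6c1 had 45.2 CPM and Ly6c2 12.2 CPM per kilobase. In IEC-/- the order of mean levels per kilobase was Ly6e (789 CPM), Ly6a (259 CPM), Ly6d (66.2 CPM), Ly6c1 (45.8 CPM), Ly6g (14.6 CPM), Ly6c2 (6.70 CPM) and Ly6m (4.84 CPM). There the libraries of Ly6d and Ly6c1 overlapped, as did those of Ly6c2 and Ly6m. The order of Ly6e and Ly6a in IEC+/+ depended on the length used: per kilobase of all annotated exons they had 338 and 363 CPM. So did the place of Ly6m, which had 46.1 CPM on that scale, below Ly6d at 80.0 and Ly6g at 68.4 CPM.

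Ly6m and Ly6g were the only members past an adjusted p of 0.05 in the fit of all genes (edgeR quasi-likelihood test, Benjamini-Hochberg, adjusted p = 0.0322 for both), and both were lower in IEC-/-. This makes 2 of the 7 tested members called, where 0.884% of all 16637 genes were called, 0.763% lower and 0.120% higher. Groups did not overlap for 5 of the 7, where 48.0% of all genes tested had groups that did not overlap. Because the contrast was used to choose the family, nothing is read from these shares. Over the same 16637 genes, edgeR gave p below 0.05 before adjustment to 1247 genes higher in IEC-/- and to 1517 lower. DESeq2 called 488 of all genes higher and 815 lower. The numbers for gene lists below are to be read beside these. By DESeq2 the members called were 4, with Ly6a lower and Ly6e higher besides, and without IEC-/- replicate 2 they were 5, with Ly6a, Ly6c2 and Ly6d lower besides. No edgeR call from all libraries, of a member or of a list gene named below, held with either IEC+/+ library left out. Only the edgeR quasi-likelihood test was rerun in that way, so this does not cover calls by other tests.

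Ly6m is a little-studied LU domain gene (chromosome 15, 74878336 to 74881704, minus strand, GRCm38.p6). It had 190.5 and 114 CPM in IEC+/+ replicates 1 and 2, from 4935 and 3013 counts, and 10.3 and 8.01 CPM in IEC-/- replicates 1 and 2, from 285 and 210 counts. Both IEC-/- libraries lay far below both IEC+/+ libraries, and the spread in CPM was wider between the IEC+/+ libraries than between the IEC-/- libraries. Mean levels were 152 ± 54.1 against 9.13 ± 1.59 CPM (SD, n = 2 each), a 16.7-fold lower level with a log2 fold change of -4.06 (SE 0.31, 95% interval -4.82 to -3.29). Without IEC-/- replicate 2 the log2 fold change was -3.89.

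Ly6g encodes the surface antigen by which mouse neutrophils are usually identified (chromosome 15, 75155261 to 75159128, plus strand). It had 66.4 and 62.5 CPM in IEC+/+ compared with 12.2 and 15.2 CPM in IEC-/-. Replicates of a group lay close together and the groups were well apart. Mean levels were 64.4 ± 2.79 CPM for IEC+/+ and 13.7 ± 2.08 CPM for IEC-/- (SD, n = 2 each), 4.70-fold lower in IEC-/-, with a log2 fold change of -2.23 (SE 0.16, 95% interval -2.63 to -1.83). Without IEC-/- replicate 2 it was -2.40. Leaving out either IEC+/+ library ended the calls of both Ly6m and Ly6g (adjusted p = 0.167 to 0.452), with log2 fold changes of -4.38 to -3.64 for Ly6m and -2.28 to -2.19 for Ly6g.

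**Figure D2:**
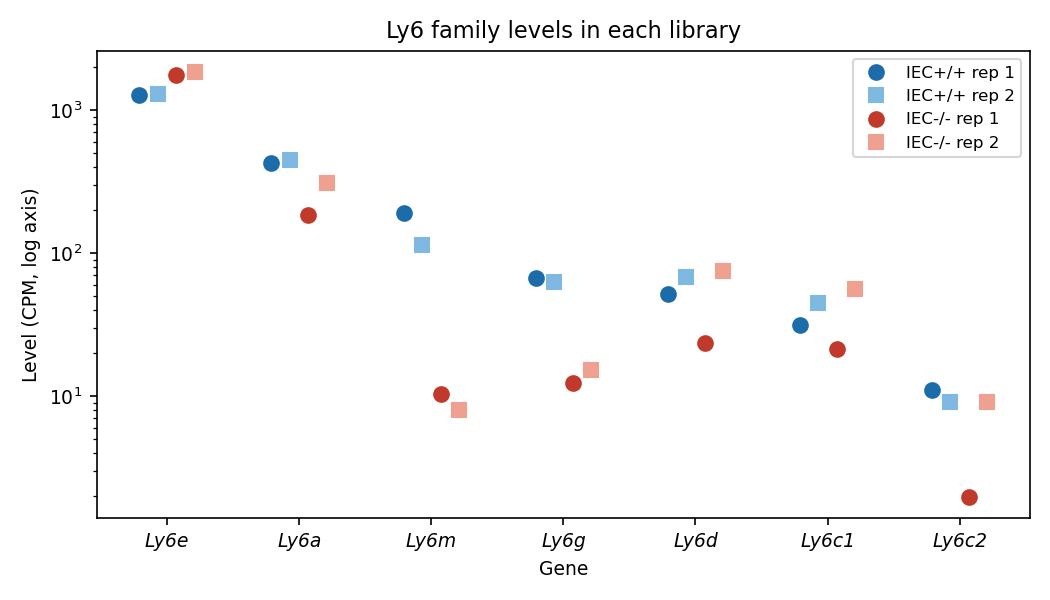
Levels of the 7 tested members in each library, in CPM on a log axis, 1 point per library. Ly6m and Ly6g have both IEC-/- points far below both IEC+/+ points, Ly6e has them above, and the IEC-/- replicate 1 point is the lowest for Ly6a, Ly6c1, Ly6c2 and Ly6d.

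The summed level of neutrophil genes did not follow Ly6g. The 15 neutrophil genes summed to 183 and 302 CPM in the IEC+/+ libraries and to 189 and 1334 CPM in the IEC-/- libraries. The sum was thus nearly level in IEC+/+ replicate 1 and IEC-/- replicate 1, where Ly6g had 66.4 and 12.2 CPM. Elane, the neutrophil elastase gene, had no count in any library. Of the 12 neutrophil genes tested, 0 were called, with 1 lower at an unadjusted p under 0.05, and the median log2 fold change was 1.21 against 0.01 over all genes. DESeq2 also called 0 of them, as did edgeR without IEC-/- replicate 2, while without IEC-/- replicate 1 edgeR called Mmp9 lower and Ltf and Ngp higher. Mmp9, a matrix metalloprotease gene and the one with the smallest p, lay on the same side as Ly6g, with 107 and 105 CPM in IEC+/+ compared with 81.3 and 48.7 CPM in IEC-/-, at a log2 fold change of -0.71 (SE 0.25, edgeR adjusted p = 0.255). Ltf, which encodes lactoferrin, had 5.29 and 26.8 CPM in IEC+/+ compared with 10.6 and 885 CPM in IEC-/-. Ltf alone made up most of the sum in IEC-/- replicate 2, and Mmp9 most of that in IEC+/+ replicate 1. Ngp and S100a9 likewise had their highest levels in IEC-/- replicate 2, at 12.1 and 166 CPM.

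Markers of differentiated colonocytes, the absorptive surface cells, were low in the same libraries as Ly6m and Ly6g. Of the 19 genes tested, 7 were called lower and 0 higher (edgeR, adjusted p under 0.05), and the median log2 fold change was -2.98. The number called, all lower, was 13 without IEC-/- replicate 2 and 3 by limma-voom. The list summed to 2670 and 1502 CPM in IEC+/+ and to 258 and 316 CPM in IEC-/-. Sycn, which encodes syncollin, had 29.3 and 23.3 CPM in IEC+/+ compared with 1.22 and 0.762 CPM in IEC-/-, at a log2 fold change of -4.72 (SE 0.33, adjusted p = 0.0322). Clca4a, a chloride channel regulator gene, had 214 and 103 CPM in IEC+/+ compared with 3.13 and 5.03 CPM in IEC-/- (-5.28, SE 0.46, adjusted p = 0.0403). Slc5a8, a monocarboxylate transporter gene, had a log2 fold change of -3.23 and Aqp8, a water channel gene, of -5.40 (adjusted p = 0.0413 for both). The 12 genes of the epithelium at large summed to 12375 and 10718 CPM in IEC+/+ and to 7559 and 7351 CPM in IEC-/-, with 0 called and 9 lower at an unadjusted p under 0.05 (DESeq2 called 8, all lower). Krt19, Cdh17, Tspan8 and Krt8 had log2 fold changes of -0.95, -1.01, -1.29 and -0.96 (edgeR adjusted p = 0.0614 to 0.0722). The part of these cell types in the Ly6m and Ly6g levels was not tested.

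Genes with the pattern most like that of Ly6m over the 4 libraries were Aqp8, Gsdmc3 and Sycn. Likeness was the root mean square difference of centred log2(CPM + 0.5) values, here 0.138, 0.183 and 0.188, over 15141 genes with a mean of at least 1 CPM. Aqp8 and Sycn are also in the colonocyte list, and Gsdmc3 belongs to the gasdermin family. Aqp8 had 0.396 and 0.191 CPM in IEC-/-, below the 0.5 added before the logarithm, which narrows its drop on this scale. Its log2 fold change was -5.40, against -4.06 for Ly6m, -4.10 for Gsdmc3 and -4.72 for Sycn. For Ly6g the nearest were Fam3b, a gene for a secreted protein, Btnl4, of the butyrophilin-like family, and the kinase gene Sgk2 (0.0929, 0.125 and 0.127). Fam3b had 23.9 and 23.1 CPM in IEC+/+ compared with 4.999 and 5.60 CPM in IEC-/-. With 4 libraries in 2 groups, such likeness rests mainly on the difference between the groups.

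**Figure D3:**
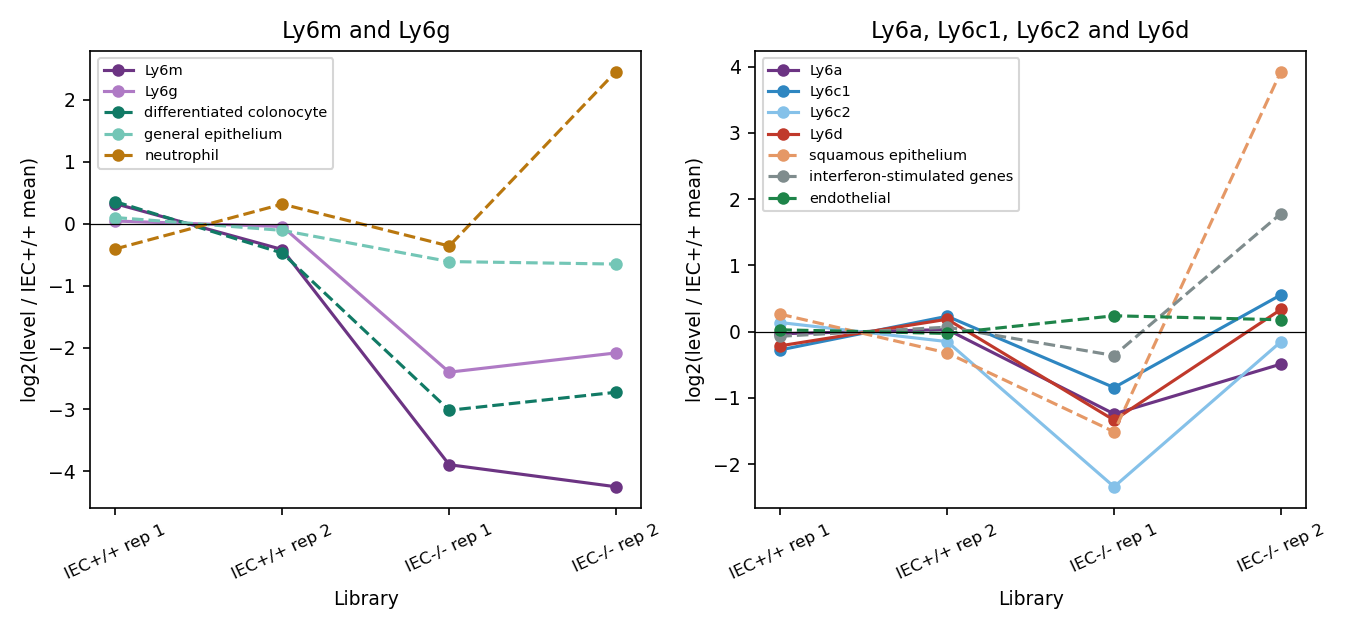
Level in each library as log2 of the ratio to the IEC+/+ mean, for members (solid lines) and for summed marker lists (dashed lines). On the left Ly6m, Ly6g and the colonocyte list are lower in both IEC-/- libraries, while the neutrophil list is high in IEC-/- replicate 2. On the right Ly6a, Ly6c1, Ly6c2 and Ly6d are lower in IEC-/- replicate 1 than in replicate 2.

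Ly6e was the one tested member whose IEC-/- libraries both lay above the IEC+/+ libraries. This broadly expressed, interferon-inducible gene (74955025 to 74959904, plus strand) had 1264 and 1294 CPM in IEC+/+ compared with 1754 and 1846 CPM in IEC-/-. Replicates were close in both groups. Mean levels were 1279 ± 21.2 CPM for IEC+/+ and 1800.1 ± 65.3 CPM for IEC-/- (SD, n = 2 each), a 1.41-fold difference with a log2 fold change of 0.49 (SE 0.11, 95% interval 0.21 to 0.78), not past the threshold over all genes. Without IEC-/- replicate 2 the value was 0.45. Genes of the most similar pattern were Lrch1, Calcoco1 and Arhgap25, with differences of 0.0209, 0.0249 and 0.0262.

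Ly6a (Sca-1; 74994877 to 74998031, minus strand) had 427 and 447 CPM in IEC+/+ compared with 185 and 311 CPM in IEC-/-. Both IEC-/- libraries were below the IEC+/+ libraries, but they differed 1.68-fold from each other. Mean levels were 437 ± 13.7 CPM for IEC+/+ and 248 ± 89.4 CPM for IEC-/- (SD, n = 2 each), with a log2 fold change of -0.82 (SE 0.25, 95% interval -1.45 to -0.19), not past the threshold. Without IEC-/- replicate 2 it was -1.25, and without IEC-/- replicate 1 it was -0.50. The nearest pattern was that of Gcnt2, a glycosyltransferase gene, at 0.0518, followed by Slc12a8 (0.0627) and H1f3 (0.0634).

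Among 16 markers of regenerating epithelium, the state in which Ly6a is known to be raised, 1 was called lower and 0 higher, with a median log2 fold change of -0.53. Leaving out IEC-/- replicate 2 gave 6 called lower, and DESeq2 called 6 lower and 1 higher. The called gene was Anxa3, an annexin gene, with 138 and 121 CPM in IEC+/+ compared with 60.9 and 66.3 CPM in IEC-/-, at a log2 fold change of -1.03 (SE 0.13, edgeR adjusted p = 0.0470). Clu, which encodes clusterin and marks revival stem cells, had a log2 fold change of -0.71 (adjusted p = 0.0708). Il1rn, the interleukin-1 receptor antagonist gene, had -0.996 (adjusted p = 0.0872), and Ccn2 had -0.56 (adjusted p = 0.103).

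Ly6d, known from squamous keratinocytes and early B cells (74762056 to 74763567, minus strand), had 51.3 and 67.7 CPM in IEC+/+ compared with 23.6 and 75.02 CPM in IEC-/-. The IEC-/- libraries were the lowest and the highest of the 4, so the groups overlapped. The log2 fold change was -0.27 (SE 0.51, 95% interval -1.56 to 1.01), and it was -1.34 without IEC-/- replicate 2 and 0.33 without IEC-/- replicate 1. The squamous list summed to 216, 144, 63.2 and 2744 CPM in IEC+/+ replicates 1 and 2 and IEC-/- replicates 1 and 2, so its lowest and highest libraries were those of Ly6d. The basal keratin gene Krt5 had 795 CPM in IEC-/- replicate 2 and 0 to 10.4 CPM in the other libraries, where Ly6d still had 23.6 to 67.7 CPM. The squamous list as a whole summed to 63.2 to 216 CPM in those libraries, so its transcripts were not absent there. Trp63 and Krt6a were also highest in IEC-/- replicate 2, at 34.0 and 587 CPM. Of 10 squamous genes tested, 1 was called higher, Sox2, a transcription factor gene, with 3.55 and 3.78 CPM in IEC+/+ compared with 14.3 and 13.7 CPM in IEC-/-, at a log2 fold change of 1.93 (edgeR adjusted p = 0.0461). With IEC-/- replicate 2 left out, 3 squamous genes were called lower and 1 higher, and without IEC-/- replicate 1, 8 were called higher. The part of squamous cells in the Ly6d values was not tested. Gdf15, a stress-induced cytokine gene, had the pattern nearest to Ly6d (0.0630), followed by Etv4 and Zfp296 (0.114 and 0.117).

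Ly6c1 and Ly6c2 lie next to each other, and their split is uncertain because the handling of reads that fit both genes is not stated. Ly6c1, which is known from endothelium and blood cells (75044018 to 75048920, minus strand), had 31.5 and 44.8 CPM in IEC+/+ compared with 21.3 and 56.1 CPM in IEC-/-. Ly6c2 (75108161 to 75112066, minus strand) had 11.0 and 9.04 CPM in IEC+/+ compared with 1.98 and 9.03 CPM in IEC-/-. Ly6c1 overlapped between groups, whereas Ly6c2 in IEC-/- replicate 2 was nearly level with the lower IEC+/+ library. The log2 fold change was 0.02 (SE 0.46, 95% interval -1.12 to 1.16) for Ly6c1 and -0.87 (SE 0.68, 95% interval -2.56 to 0.82) for Ly6c2. Without IEC-/- replicate 2 these were -0.85 and -2.34, without IEC-/- replicate 1 they were 0.55 and -0.16, and the summed counts of both genes gave -0.13 over all 4 libraries. Ly6c2 made up 25.9% and 16.8% of their joint counts in IEC+/+, and 8.51% and 13.9% in IEC-/-.

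Endothelial genes, 14 in number, summed to 409 and 394 CPM in IEC+/+ compared with 474 and 455 CPM in IEC-/-, a narrower range than that of Ly6c1, with 0 called by edgeR or DESeq2 (at an unadjusted p under 0.05, 1 higher and 0 lower by edgeR). Vwf, Cldn5, Cdh5 and Esam had log2 fold changes of 0.55, 0.83, 0.33 and 0.29 (edgeR adjusted p = 0.210 to 0.508). The 15 monocyte and macrophage genes summed to 1164, 1141, 1545 and 1174 CPM, highest in IEC-/- replicate 1, where Ly6c2 was lowest. The lysozyme gene Lyz2 alone had 396, 349, 797 and 504 CPM in the same order. Without Lyz2, the sum was not highest in IEC-/- replicate 1. Of these 15 genes 1 was called by edgeR, Plac8, lower in IEC-/- with 213 and 222 against 81.5 and 79.8 CPM (log2 fold change -1.43, SE 0.12, edgeR adjusted p = 0.0339). Most of the list lay on the other side: 11 of 15 had a higher mean in IEC-/-, an unadjusted p under 0.05 was reached by 5 on the higher and 2 on the lower side, and the median log2 fold change was 0.44. DESeq2 called Itgam and Lyz2 higher and Plac8 lower. Itgam, an integrin gene, had a log2 fold change of 0.60, the lysozyme gene Lyz2 of 0.80 and the complement gene C1qb of 0.46 (edgeR adjusted p = 0.125, 0.195 and 0.242). The patterns nearest to Ly6c1 were those of Chit1, Il33 and S1pr4 (0.0833, 0.0868 and 0.0877), and those nearest to Ly6c2 were Gm34746, 9030619P08Rik and Csta1 (0.110, 0.156 and 0.188). Il33, an alarmin cytokine gene, had 44.7 and 55.1 CPM in IEC+/+ compared with 29.6 and 79.9 CPM in IEC-/-.

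Ly6f and Ly6i were near the limit of detection. Ly6f (75268372 to 75272237, plus strand) had 0 counts in both IEC+/+ libraries, which allows up to 0.116 and 0.114 CPM (3 counts, for counting error only), and 2 counts in each IEC-/- library. Ly6i (74979534 to 74983434, minus strand) had 0 and 3 counts in IEC+/+, and 5 and 22 counts in IEC-/-. The highest Ly6i count was thus in IEC-/- replicate 2, the library with the highest sum of interferon-stimulated genes, and no fold change is given for either gene.

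Of 28 interferon-stimulated genes tested, 0 were called (at an unadjusted p under 0.05, 5 higher and 1 lower), with a median log2 fold change of 0.79. DESeq2 called 1 higher and 1 lower. With IEC-/- replicate 1 left out, 18 were called higher, and without IEC-/- replicate 2, 3 were called lower. The highest sum of these genes was in IEC-/- replicate 2 and the lowest in IEC-/- replicate 1 (2241 and 507 CPM), whereas Ly6e had nearly the same level in both. Iigp1, an interferon-induced GTPase gene, had 8.68 and 15.3 CPM in IEC+/+ compared with 14.5 and 258 CPM in IEC-/-. Usp18, which restrains interferon receptor signalling, had a log2 fold change of 1.18 (edgeR adjusted p = 0.199), Ifit2 of 0.90 (adjusted p = 0.254) and Oasl1 of -1.06 (adjusted p = 0.236). Among 15 tested genes for interferons, their receptors and signalling, 0 were called by edgeR or DESeq2 (at an unadjusted p under 0.05, 0 higher and 3 lower by edgeR), with a median of 0.02. Il10rb, Ifngr1 and Ifnar2, which encode chains of receptors for interferons or interleukin-10, had log2 fold changes of -0.45, -0.33 and 0.36, and the kinase gene Jak2 had -0.37 (edgeR adjusted p = 0.184 to 0.359). Ifnb1, Ifnl2 and Ifnl3 had no count.

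Of the wider LU domain family, 16 of 32 matched genes were tested, of which 1 was called lower and 0 higher, and the median log2 fold change was 0.05. DESeq2 called 3 lower and 1 higher. The called gene was Lypd8, which encodes a colonic protein that binds the flagella of bacteria and keeps them from the epithelium. It had 5242 and 4213 CPM in IEC+/+ compared with 1207 and 753 CPM in IEC-/-, a log2 fold change of -2.27 (SE 0.26, edgeR adjusted p = 0.0413). Ly6g2, whose exon is printed beside that of Ly6g, had 12.0 and 16.3 CPM in IEC+/+ compared with 4.999 and 7.97 CPM in IEC-/-, at a log2 fold change of -1.13 (SE 0.33, adjusted p = 0.195). Its groups did not overlap, but it did not pass the threshold. Plaur, the urokinase receptor gene, had 44.2 and 40.7 CPM against 14.7 and 27.03 CPM (-1.02, adjusted p = 0.192), and Lypd6, which enhances Wnt signalling, had 1.00 and 3.78 against 6.44 and 14.9 CPM (2.16, adjusted p = 0.242). Psca had 99.2 CPM in IEC-/- replicate 2 and 0.154 to 2.50 CPM elsewhere (5.22, adjusted p = 0.345).

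**Figure D4:**
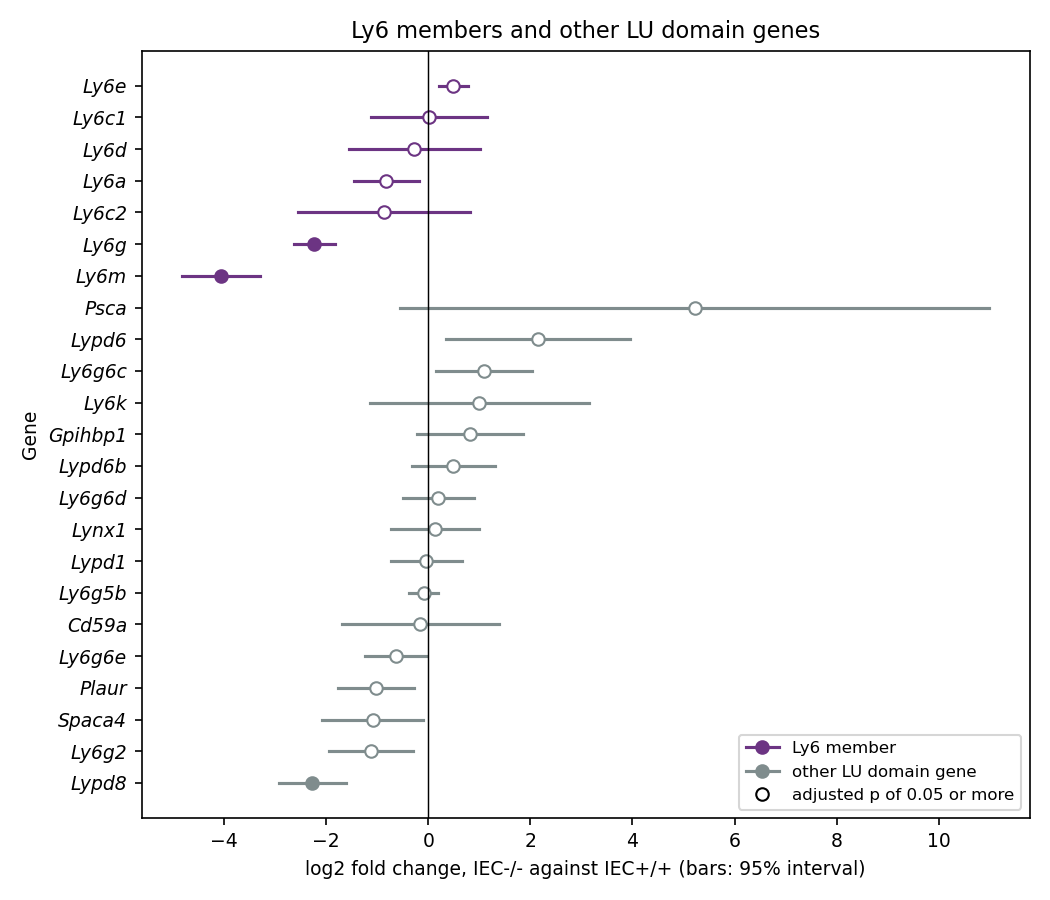
Log2 fold change of IEC-/- against IEC+/+ with 95% intervals for the 7 tested members and the 16 other LU domain genes tested, filled points being those past an adjusted p of 0.05. Ly6m, Ly6g and Lypd8 are filled and negative, and the interval of Psca is the widest.

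The 9 members span 510 kb of chromosome 15, from 74762056 to 75272237. Of 16 tested neighbours in and around this interval 0 were called by edgeR or DESeq2 (at an unadjusted p under 0.05, 2 higher and 0 lower by edgeR), with a median log2 fold change of 0.18. The 2 called members, Ly6m and Ly6g, start 277 kb apart, and Ly6e, Ly6a, Ly6c1 and Ly6c2 lie between them with log2 fold changes from -0.87 to 0.49. Outside the interval on the Ly6d side, Lynx1, Them6 and Arc had log2 fold changes of 0.13, 0.57 and -0.17, and Adgrb1 of 2.11 at 0.189 to 1.26 CPM. Inside it, between Ly6d and Ly6m, Ly6k had 1.00 and Gml -1.71 at 0.144 to 0.568 CPM. Beyond Ly6f, Gpihbp1, which holds lipoprotein lipase on capillaries, had 0.82, Zfp41 0.76, Rhpn1 0.31 and Top1mt 0.23. Mafa, Zc3h3, Gsdmd, Naprt and Eef1d had log2 fold changes of -0.10, -0.23, -0.37, -0.40 and -0.06, with none past the threshold. Ly6g2, which lies between Ly6g and Ly6f and is counted with the LU domain genes and not among these 16, had -1.13.

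**Figure D5:**
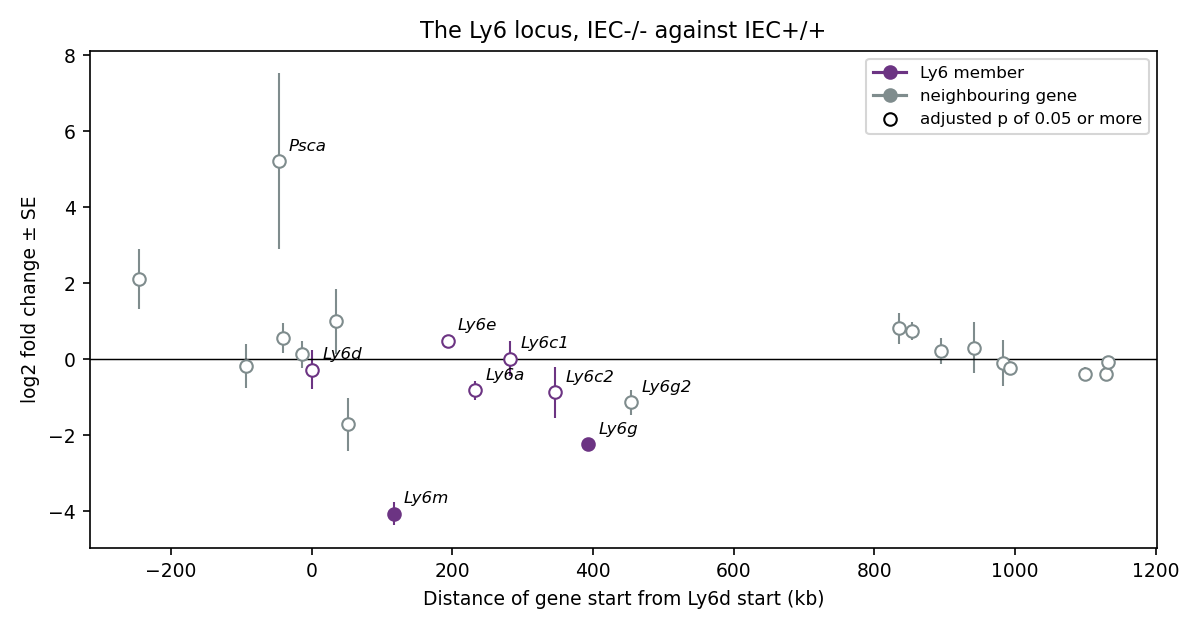
Log2 fold change ± SE of the tested genes of the Ly6 locus against the distance of each gene's start from that of Ly6d in kb, with members in purple and neighbours in grey, and filled points past an adjusted p of 0.05. The filled points are Ly6m and Ly6g, with Ly6e, Ly6a, Ly6c1 and Ly6c2 open between them.

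Of 30 genes for synthesis and remodelling of the GPI anchor, which most Ly6 proteins need to reach the surface, 0 were called (at an unadjusted p under 0.05, 2 higher and 2 lower), with a median log2 fold change of -0.03. DESeq2 called 2 lower and 1 higher. Piga, whose product carries out the first step with its partners, had 42.8 and 46.4 CPM in IEC+/+ compared with 26.98 and 29.2 CPM in IEC-/- (-0.67, SE 0.13, edgeR adjusted p = 0.0991). Pigp, of the same complex, had 0.47 (adjusted p = 0.231). Gpld1, a phospholipase that cuts the anchor, had 0.60 (adjusted p = 0.125), and Pgap1, which removes a fatty acid from it, had -1.19 (adjusted p = 0.190). Among other cell types, 0 of 8 T and NK cell genes (at an unadjusted p under 0.05, 1 higher and 0 lower), 0 of 10 B and plasma cell genes (0 and 0) and 0 of 11 fibroblast and smooth muscle genes (0 and 3) were called by edgeR. DESeq2 called 1 of these, the desmin gene Des, lower (edgeR log2 fold change -1.53). Other values were -1.17 for Lum, -1.32 for Cnn1 and -0.31 for Dcn, 0.53 for Thy1, 1.14 for Cd3g, 0.56 for Lck and 0.38 for Gzmb, and -0.52 for Xbp1, 1.20 for Cd79b and -1.08 for Pax5.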

How the data were processed

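Polyadenylated RNA of 4 mouse colon tumour samples was sequenced as paired reads of 150 bases, per the labels' protocols. TopHat, edgeR, limma and the mm10 build are listed in the submitters' processing notes, without roles or versions. Not given in the sources used here were the counter, its treatment of reads shared between genes and whether it used strand. Each deposited file holds whole-number counts per gene symbol, used as the authors deposited them, and depth was 25472503 to 27218515 counts per library.

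Genes were tested with edgeR 4.0.16 (R 4.3.3): TMM scaling (factors 0.955 to 1.05), its default low-count filter, and the quasi-likelihood F-test between the groups over 16637 genes, with Benjamini-Hochberg adjustment and calls at an adjusted p under 0.05. Biological variation (common coefficient) was 0.248. Standard errors come from the F statistic, and intervals cover 95%. Counts for these 16637 genes and this comparison were simulated in 5 runs. Calls were made for 28.8% of genes with a simulated log2 change of 1, 78.8% for 2, 90% for 3 and 97.2% for 4. Of unchanged genes 0.148% were called. These were 122 calls, beside 72, 197, 225 and 243 calls for changes of 1, 2, 3 and 4. False calls thus made up more of the calls than the adjusted p threshold of 0.05 implies.

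The members and the 15 gene lists, with 274 genes of which 3 were unmatched, were chosen with earlier results of these data known. Named genes were the 9 members, all locus neighbours tested, up to 4 genes with the smallest p in a list, and for each member the 3 genes of the most similar pattern; Elane, Ifnb1, Ifnl2 and Ifnl3 are named besides because they had no count, and 1 gene that the rule names is not reported here. Coding sequences were read from GENCODE M21 transcripts on GRCm38.p6, the assembly also called mm10. Ly6m was matched there through its RefSeq synonym 2010109I03Rik and Ly6g2 by its coordinates. Levels per kilobase use the transcript with the printed coding sequence. The chi-square statistic per degree of freedom was 33.8 and 66.6 within groups and 87.9 to 128 between groups, so no library repeated another. Alternatives covered scaling, filter, test (DESeq2 1.42.0, edgeR's exact test, limma-voom in limma 3.58.1), a replicate block, each library left out and summed paralog counts.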

Additional observations from a re-analysis of the deposited data

How the results depend on the processing

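The number of genes changed, 147, was 83 with no scaling factor (65 lower and 18 higher), 376 with no filter on low counts (307 and 69), 1303 by DESeq2 (815 and 488), 882 by edgeR's exact test (566 and 316) and 78 by limma-voom (68 and 10). It was 0 to 749 with 1 library left out: 0 without either IEC+/+ library, 749 without IEC-/- replicate 1 and 585 without IEC-/- replicate 2. With 1 library left out, the lone library is assumed to vary like the other group. With the replicate block the number was 211 and the members called were again 2. Replicate numbers are not known to pair the samples, and the deviations of same-numbered libraries correlated at 0.16. The members called, 2, were 4 by DESeq2 (Ly6a, Ly6g and Ly6m lower and Ly6e higher), 0 to 5 with 1 library left out, and 0 with the counts of all 9 summed into 1 row. The 5 without IEC-/- replicate 2 were Ly6a, Ly6c2, Ly6d, Ly6g and Ly6m, all lower.

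The direction of Ly6c1 turned in 5 of 13 alternatives, with log2 fold changes of -0.14 by limma-voom, -0.12 with the replicate block, -0.21 without IEC+/+ replicate 1, -0.85 without IEC-/- replicate 2 and -0.13 with the counts of Ly6c1 and Ly6c2 summed. With 1 library left out, Ly6c1 ranged from -0.85 to 0.55 and Ly6d from -1.34 to 0.33, the last being the value of Ly6d without IEC-/- replicate 1 and its only turn. The cause was not tested. Ly6a, Ly6c2, Ly6e, Ly6g and Ly6m kept their direction in all alternatives run. Ly6m ranged from -4.38 to -3.64, Ly6g from -2.40 to -2.09 Ly6e from 0.45 to 0.60, Ly6a from -1.25 to -0.50 and Ly6c2 from -2.34 to -0.16 on the log2 scale. With no scaling factor the median over all genes moved from 0.01 to 0.12. A simulated log2 change of 1, larger than the values of Ly6a and Ly6e, was called in 28.8% of genes at this depth and number of libraries. Those genes were drawn at random from all genes tested, whatever their level, so this share is not that for Ly6a or Ly6e.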
